A study of Mus musculus with 16 samples.

Results

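NF-kappaB is a family of transcription factors whose subunits pair with each other and wait in the cytoplasm, held by IkappaB inhibitor proteins. Signals such as tumour necrosis factor or interleukin-1 activate a kinase complex that marks the inhibitors for destruction, and the freed dimers enter the nucleus and switch on cytokine, chemokine and adhesion genes. Several inhibitor genes are themselves NF-kappaB targets, which closes a feedback loop, and glucocorticoids acting through their receptor are known to restrain this pathway and to induce the inhibitor gene Nfkbia in many cells. In the uterus the pathway serves host defence and inflammatory signalling.

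The 10 genes described are the subunits Rela, Relb, Rel, Nfkb1 and Nfkb2, the cytoplasmic inhibitors Nfkbia, Nfkbib and Nfkbie, and the nuclear IkappaB proteins Nfkbiz and Bcl3. The choice was made with earlier results of these data known. They were taken from the array by matching the RefSeq accession of each spot, without its version, to gene symbols and aliases. Of 19096 genes with a symbol on the array, 9 were members, with 10 probes between them. Nfkb1 was reached by no accession and is not analysed here. Rel was not well above background on any of the 16 arrays, in any group, so 8 of the 10 were tested and no fold is given for Rel.

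RNA from the whole uterus of mice was hybridised to 16 one-colour Agilent arrays, 4 per group. GenD mice received genistein, an estrogen-like compound of soy, at 50 mg/kg on postnatal days 1 to 5, and 1 mg/kg dexamethasone, a synthetic glucocorticoid, at 8 weeks. GenV mice received the same neonatal genistein and 100 µl saline vehicle at 8 weeks. SalD mice had the neonatal control treatment and adult dexamethasone, and SalV mice had the neonatal control treatment and adult saline vehicle. The neonatal control is called saline by the sample labels and 20 µl corn oil by the design text. In all 4 groups the adrenals and ovaries had been removed at 6 weeks, which deprives the mice of their own corticosterone and ovarian hormones, and the uterus was collected 4 h after the adult injection. Individual mice are not named by the labels. The p-values therefore speak only of array-to-array spread, which may be partly technical. Their number limits the precision.

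Levels are log2 of the processed spot signal minus the 75th percentile of the same array, so a level of 0 is the 75th percentile and a step of 1 is a doubling. A probe's level is not comparable with that of another probe. Changes are differences of group means with their standard error from a limma model over 24652 genes and unnamed targets, and a gene is said to have risen or fallen only at a Benjamini-Hochberg adjusted p below 0.05 over all of them. The 75th percentile of signal ran from 948 to 2719 per array. On the first principal component, with 29.7% of the variance, the SalD arrays lay at 65.0 to 102.4 and the other 12 arrays at -68.3 to 18.0, with SalV array 1 at -68.3 and the other SalV arrays at 8.9 to 18.0. Markers of uterine epithelium (6 of 6), endothelium (6 of 6), stroma (5 of 5 measured) and smooth muscle (5 of 5 measured) were well above background on every array. The summed signal of 6 adipocyte markers, in units of the 75th percentile, was 7.43, 129.6, 124.6 and 50.3 on SalD arrays 1 to 4, against 0.777 to 11.1 on SalV arrays, 4.02 to 40.1 on GenD arrays and 9.11 to 38.7 on GenV arrays. Calls on members that were lost without SalD arrays 2 and 3 are named beside the result. All 6 genes listed as a check of the hormone passed the test in both arms. Fkbp5, Tsc22d3, Per1, Sgk1 and Dusp1, which glucocorticoids induce, rose, with Fkbp5 up by 4.56 in GenD over GenV and by 4.44 in SalD over SalV on the log2 scale, and the receptor gene Nr3c1 fell.

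Promoter sequences of 5 of the 6 members called in some comparison are shown because NF-kappaB and the glucocorticoid receptor both act through short DNA motifs near genes. RefSeq windows (build GRCm38.p6) from 250 bases before to 50 bases after a start site were held for 7 of the 10 members, in 9 windows, and not for Relb, Nfkbiz and Nfkb1. The NF-kappaB consensus, searched on both strands, was present in 7 of the 9 windows, against 8.46% of all 32851 windows. It was present in 5 of the 7 members (Bcl3, Nfkb2, Nfkbia, Nfkbie and Rel), for which no share by gene was counted. Several of the 9 windows belong to Nfkb2, and overlapping windows of that gene hold the same match. The palindromic glucocorticoid response element was in 0 of 9 windows (0.475% of all windows), and the glucocorticoid receptor hexamer AGAACA, also searched on both strands, was in 0 of 9 (19.0% of all windows). A match is a description of the letters only, and the absence of one concerns these windows only. Each line below runs 5′ to 3′ from 150 bases before the start site to 25 bases into the transcribed part, 175 bases in all, with bases of NF-kappaB consensus matches in capitals.
Nfkbia, chr12:55492623-55492797, minus strand: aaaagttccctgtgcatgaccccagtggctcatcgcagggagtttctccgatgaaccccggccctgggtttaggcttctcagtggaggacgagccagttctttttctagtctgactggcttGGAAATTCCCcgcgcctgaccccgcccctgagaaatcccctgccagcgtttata
Nfkbie, chr17:45555550-45555724, plus strand: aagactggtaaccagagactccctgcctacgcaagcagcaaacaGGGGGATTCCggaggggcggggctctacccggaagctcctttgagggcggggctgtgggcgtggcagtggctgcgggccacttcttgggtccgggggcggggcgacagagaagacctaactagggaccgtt
Bcl3, chr7:19822731-19822905, minus strand: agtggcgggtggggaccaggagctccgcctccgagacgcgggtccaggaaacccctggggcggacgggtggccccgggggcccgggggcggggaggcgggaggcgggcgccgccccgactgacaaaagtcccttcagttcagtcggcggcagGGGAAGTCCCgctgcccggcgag
Rela, chr19:5637391-5637565, plus strand: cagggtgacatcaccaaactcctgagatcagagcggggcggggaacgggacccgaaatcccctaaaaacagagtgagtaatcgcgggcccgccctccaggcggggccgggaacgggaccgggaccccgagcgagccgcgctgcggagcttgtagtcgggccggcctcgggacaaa
Nfkbib, chr7:28766620-28766794, minus strand: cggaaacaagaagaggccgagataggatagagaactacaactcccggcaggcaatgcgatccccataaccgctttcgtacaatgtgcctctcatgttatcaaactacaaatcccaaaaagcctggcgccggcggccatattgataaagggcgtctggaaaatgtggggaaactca
The match of Nfkbia lies 29 to 20 bases before its start site, that of Nfkbie 106 to 97 bases before, and that of Bcl3 begins 2 bases past the first transcribed base. Rela and Nfkbib have no match in their windows.

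Under dexamethasone the subunit Relb and the inhibitor Nfkbie fell and the inhibitor Nfkbia rose in both neonatal arms. In the control arm the subunit Rela and the nuclear protein Bcl3 also fell, and in the genistein arm the inhibitor Nfkbib also rose. In SalD over SalV, 1 of the 8 tested members rose and 4 fell, which is 62.5% of them, beside 23.0% of all genes called (8.45% higher and 14.6% lower). In GenD over GenV, 2 rose and 2 fell, which is 50%, beside 5.29% of all genes called (2.49% higher and 2.79% lower). The groups did not overlap for 6 of 8 members in each of these comparisons, beside 28.3% of all genes in the control arm and 12.2% in the genistein arm. The median change of the 8 was -0.365 in GenD over GenV (all genes -0.015) and -0.895 in SalD over SalV (all genes -0.16). With arrays scaled on their median instead of the 75th percentile, the all-gene median in SalD over SalV was 0.0683. The share of called genes that rose was then 64.8% rather than 36.7%. The changes of Rela, Relb, Nfkbia, Nfkbie and Bcl3 kept their direction. Nfkbib in SalD over SalV, not called in the main fit, passed with that scaling (0.52, limma adjusted p = 0.0345). The arrays came from 5 slides, of which slide 5 held a SalV array alone; with slide as a fixed block, all calls on members held but those on Nfkbia. As whole-organ RNA was measured, fewer cells of a type and less RNA per cell cannot be told apart.

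**Figure D1:**
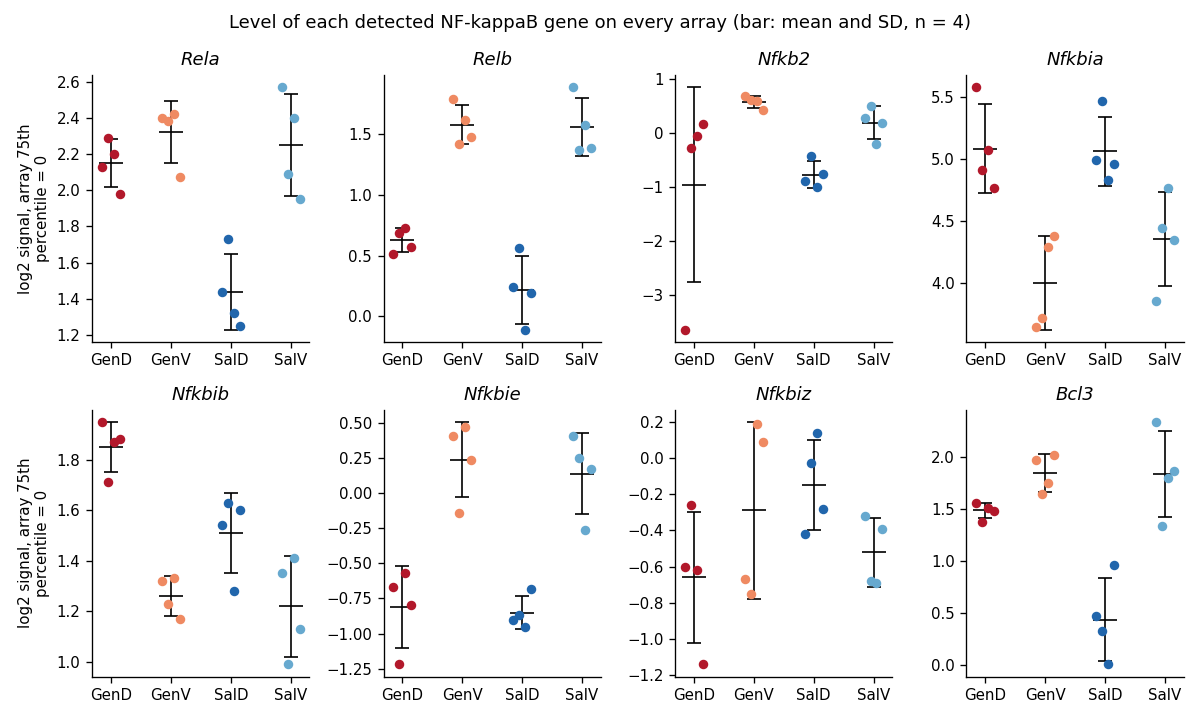
Level of each tested member on every array (points), as log2 signal with the array's 75th percentile at 0; black bars are the mean and SD of 4 arrays. Relb and Nfkbie are lower in both dexamethasone groups than in the matching vehicle groups, Rela and Bcl3 are lowest in SalD, and 1 GenD array of Nfkb2 stands at -3.65.

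Among the subunits, Relb, which pairs with the product of Nfkb2 in the noncanonical branch of the pathway, showed the steadiest fall. Its level was 0.51, 0.69, 0.73 and 0.57 on the GenD arrays, against 1.79, 1.42, 1.62 and 1.48 on the GenV arrays. It was 0.24, 0.56, -0.11 and 0.19 on the SalD arrays, against 1.89, 1.37, 1.58 and 1.39 on the SalV arrays. Every dexamethasone array lay below every vehicle array. The change was -0.95 ± 0.16 (SE) in GenD over GenV, which is 1.93-fold lower (limma, adjusted p = 0.00295), and -1.34 ± 0.16 in SalD over SalV, which is 2.53-fold lower (limma, adjusted p = 0.000157). Within each slide that held both groups the change ran from -1.16 to -0.80 in the genistein arm and from -1.51 to -1.13 in the control arm.

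Rela, the p65 subunit of the most common NF-kappaB dimer, fell in the control arm and did not pass the test in the genistein arm. Its level was 2.13, 2.29, 2.20 and 1.98 on the GenD arrays, against 2.40, 2.38, 2.42 and 2.07 on the GenV arrays. It was 1.44, 1.73, 1.32 and 1.25 on the SalD arrays, against 2.57, 2.09, 2.40 and 1.95 on the SalV arrays. All SalD arrays lay below all SalV arrays, whereas the ranges of GenD and GenV overlapped, through GenV array 4 at 2.07 alone. The change was -0.17 ± 0.16 in GenD over GenV (95% interval -0.51 to 0.17, limma adjusted p = 0.658) and -0.82 ± 0.16 in SalD over SalV, which is 1.76-fold lower (limma, adjusted p = 0.00355). Within slides the control-arm change was -1.08, -0.65 and -0.63. A second Rela probe, printed as 10 spots whose SD on an array was 0.0356 to 0.193, gave the same calls. On it the means were -1.56 ± 0.37 in GenD, -1.38 ± 0.07 in GenV, -2.52 ± 0.29 in SalD and -1.36 ± 0.35 in SalV (SD, n = 4 each), and the change in SalD over SalV was -1.16 ± 0.21 (limma, adjusted p = 0.00225).

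Nfkb2 encodes p100, which is both a precursor of the p52 subunit and an inhibitor of Relb. Its level was -3.65, -0.28, -0.06 and 0.16 on the GenD arrays, against 0.69, 0.60, 0.59 and 0.42 on the GenV arrays. It was -0.90, -0.43, -1.01 and -0.76 on the SalD arrays, against 0.28, 0.50, -0.21 and 0.18 on the SalV arrays. The groups did not overlap in either arm, but GenD array 1 stood far below the other 15 arrays and widened the error shared by all comparisons. The change was -1.53 ± 0.61 in GenD over GenV (limma, adjusted p = 0.188) and -0.97 ± 0.61 in SalD over SalV (limma, adjusted p = 0.264), and neither passed. On GenD array 1 the processed signal of this spot was 135.5, against 1473 to 1725 on the other GenD arrays, and the scanner software did not mark it as an outlier. The 54 measured spots within 5 rows and columns of it had a median of -0.82 and a minimum of -5.32 relative to the other GenD arrays, whereas the same median for the other spots and arrays of the tested members ran from -0.58 to 0.33. The value of -0.58 belongs to the Nfkbia spot on the same array, whose own level was the highest of the GenD arrays. The part of this stretch of the array in the result was not tested. Without GenD array 1, the change in Nfkb2 was -0.63 in GenD over GenV (limma, adjusted p = 0.085) and -0.97 in SalD over SalV, which then passed (limma, adjusted p = 0.00304).

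Among the inhibitors, Nfkbia, which encodes IkappaB-alpha, the inhibitor that retrieves NF-kappaB dimers from the nucleus, rose. Its level was 5.58, 4.91, 5.07 and 4.76 on the GenD arrays, against 3.64, 3.71, 4.29 and 4.38 on the GenV arrays. It was 4.99, 5.47, 4.83 and 4.96 on the SalD arrays, against 3.85, 4.44, 4.76 and 4.34 on the SalV arrays. The dexamethasone and vehicle arrays did not overlap in either arm, though SalD array 3 at 4.83 lay close to SalV array 3 at 4.76. The change was 1.08 ± 0.24 in GenD over GenV, which is 2.11-fold higher (limma, adjusted p = 0.0194), and 0.72 ± 0.24 in SalD over SalV, which is 1.64-fold higher (limma, adjusted p = 0.0477). With slide as a fixed block the change was 1.08 in GenD over GenV (adjusted p = 0.0551) and 0.84 in SalD over SalV (adjusted p = 0.0563), so neither passed. With slide as a random block both passed, at 1.08 (adjusted p = 0.0182) in GenD over GenV and 0.72 (adjusted p = 0.0448) in SalD over SalV. The within-slide changes were 1.68, 0.53 and 1.05 in GenD over GenV and 1.37, 0.55 and 0.49 in SalD over SalV. The control-arm call was also lost without any single SalD array and without SalV array 1, 2 or 4, with adjusted p from 0.059 to 0.152, and, through the shared error, without GenV array 2 or GenD array 2 or 3 (adjusted p up to 0.0615). Without SalD arrays 2 and 3 together the control-arm change was 0.63 (limma, adjusted p = 0.178). The genistein-arm call was lost without GenD array 1 or 3 or GenV array 1 or 2, with adjusted p from 0.0528 to 0.0617.

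Nfkbie encodes IkappaB-epsilon, an inhibitor induced late in the response, and it moved in the opposite direction to Nfkbia. Its level was -0.67, -1.22, -0.57 and -0.80 on the GenD arrays, against 0.41, -0.14, 0.47 and 0.24 on the GenV arrays. It was -0.90, -0.87, -0.95 and -0.68 on the SalD arrays, against 0.41, 0.25, -0.26 and 0.17 on the SalV arrays. No dexamethasone array reached the level of a vehicle array. The change was -1.06 ± 0.18 in GenD over GenV, which is 2.08-fold lower (limma, adjusted p = 0.0039), and -0.99 ± 0.18 in SalD over SalV, which is 1.99-fold lower (limma, adjusted p = 0.00277). Both calls held with every array left out in turn, and within slides the change ran from -1.45 to -0.66 in the genistein arm and from -1.18 to -1.12 in the control arm.

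Nfkbib, which encodes IkappaB-beta, rose in the genistein arm. Its level was 1.95, 1.71, 1.87 and 1.88 on the GenD arrays, against 1.32, 1.23, 1.33 and 1.17 on the GenV arrays. It was 1.54, 1.63, 1.28 and 1.60 on the SalD arrays, against 1.35, 0.99, 1.41 and 1.13 on the SalV arrays. GenD and GenV were well apart, while SalD array 3 lay within the range of the SalV arrays. The change was 0.59 ± 0.13 in GenD over GenV (limma, adjusted p = 0.0142), and 0.29 ± 0.13 in SalD over SalV (95% interval 0.02 to 0.56, limma adjusted p = 0.11). Within slides the genistein-arm change was 0.59, 0.54 and 0.65. It no longer passed without GenV arrays 3 and 4 (0.57, limma adjusted p = 0.0525), nor in a fit of the 8 GenD and GenV arrays alone (0.59, limma adjusted p = 0.056). The control-arm change passed with median scaling (0.52, limma adjusted p = 0.0345) and with array weights (0.32, limma adjusted p = 0.0485).

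The nuclear IkappaB proteins act on DNA-bound p50 or p52 dimers rather than on cytoplasmic ones. Bcl3, a coactivator of these dimers, had levels of 1.56, 1.38, 1.51 and 1.48 on the GenD arrays, against 1.97, 1.65, 1.75 and 2.02 on the GenV arrays. It had 0.47, 0.33, 0.01 and 0.96 on the SalD arrays, against 2.34, 1.34, 1.80 and 1.87 on the SalV arrays. The groups did not overlap in either arm, and the gap was wider in the control arm. The change was -0.36 ± 0.21 in GenD over GenV (95% interval -0.82 to 0.10, limma adjusted p = 0.424) and -1.39 ± 0.21 in SalD over SalV, which is 2.63-fold lower (limma, adjusted p = 0.000888). Within slides the control-arm change was -1.70, -0.87 and -1.86, and without SalD arrays 2 and 3 it was -1.12 (limma, adjusted p = 0.0109).

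Nfkbiz encodes IkappaB-zeta, which is needed for a subset of late NF-kappaB targets. Its arrays ranged from -1.14 to -0.26 in GenD, from -0.75 to 0.19 in GenV, from -0.42 to 0.14 in SalD and from -0.69 to -0.32 in SalV. All of these ranges overlapped their neighbours. The change was -0.37 ± 0.24 in GenD over GenV (limma, adjusted p = 0.477) and 0.37 ± 0.24 in SalD over SalV (limma, adjusted p = 0.276), and neither passed.

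**Figure D2:**
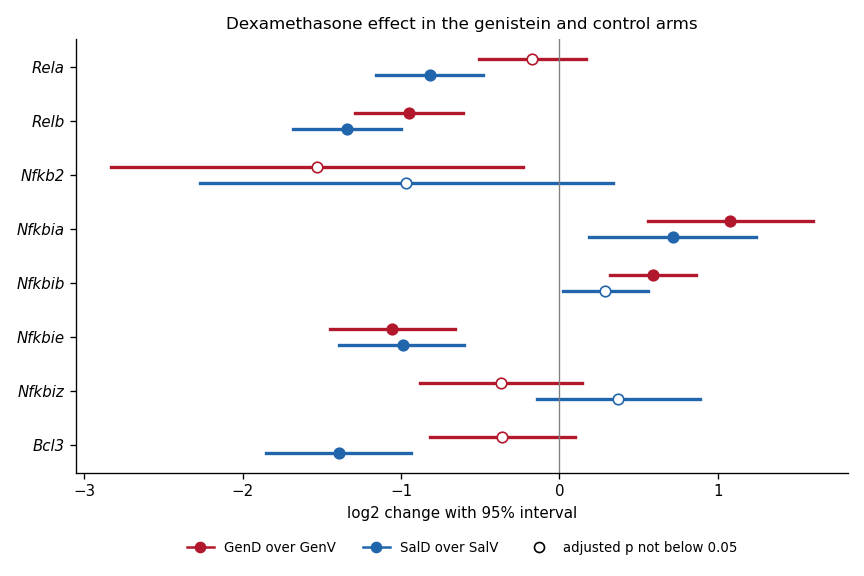
Log2 change with its 95% interval for each tested member in GenD over GenV (red) and SalD over SalV (blue); filled points have an adjusted p below 0.05. Relb, Nfkbia and Nfkbie are filled in both arms, Rela and Bcl3 in the control arm alone, and Nfkbib in the genistein arm alone; the difference between arms passed for none of them.

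A call in 1 arm and not in the other does not show that the arms differ, so the difference of the dexamethasone effects was tested for each member. None of the 8 passed (limma, 0 of 8, beside 0% of all 24652 genes), and 3 of 8 had an unadjusted p below 0.05, beside 15.5% of all genes. These were Bcl3, with a difference of 1.03 ± 0.30 (limma, adjusted p = 0.188), Rela, with 0.65 ± 0.22 (adjusted p = 0.225), and Nfkbiz, with -0.74 ± 0.34 (adjusted p = 0.315). Positive values mean a weaker fall in the genistein arm for Bcl3 and Rela. For Relb the difference was 0.39 (95% interval -0.09 to 0.87), for Nfkbia 0.36 (-0.38 to 1.10), for Nfkbib 0.30 (-0.08 to 0.68) and for Nfkbie -0.07 (-0.62 to 0.49). For Nfkb2, with its low GenD array 1, the difference was -0.57 (-2.41 to 1.28). These intervals include 0 and leave room for differences from -2.41 to 1.28 on the log2 scale, so the arms are not shown to be alike.

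Neonatal genistein alone left no called difference among the members. In GenV over SalV, 0 of 8 passed (limma, beside 0.00406% of all genes), 0 of 8 had an unadjusted p below 0.05 (13.9% of all genes) and 0 of 8 had groups that did not overlap (4.77% of all genes). The changes ran from -0.35 for Nfkbia to 0.39 for Nfkb2, with adjusted p of 0.479 to 0.989. For Relb, Rela and Bcl3 they were 0.02 (95% interval -0.32 to 0.36), 0.06 (-0.28 to 0.40) and 0.01 (-0.45 to 0.46).

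Under dexamethasone, the genistein arm had more Rela and Bcl3 than the control arm. In GenD over SalD, 2 of 8 members rose and 0 fell, which is 25%, beside 22.9% of all genes called (16.5% higher and 6.39% lower), a share close to that of all genes. Groups did not overlap for 3 of 8 members (Rela, Nfkbib and Bcl3), beside 28.6% of all genes. These comparisons share the GenD and SalD arrays with those above, so their values are given side by side and not as separate evidence. Bcl3 was 1.04 ± 0.21 higher, which is 2.06-fold (limma, adjusted p = 0.00697), and Rela was 0.71 ± 0.16 higher, which is 1.64-fold (limma, adjusted p = 0.00955). Within slides 3 and 4, which held both groups, Bcl3 differed by 0.91 and 1.47 and Rela by 0.84 and 0.65. Without SalD arrays 2 and 3 the change in Bcl3 was 0.77 and no longer passed (limma, adjusted p = 0.0634), and that in Rela was 0.80 (limma, adjusted p = 0.0256). Relb, at 0.41 ± 0.16 (adjusted p = 0.0764), and Nfkbib, at 0.34 ± 0.13 (adjusted p = 0.063), did not pass in limma. Nfkbiz, at -0.51 ± 0.24 (limma, adjusted p = 0.133), did not pass either. Nfkbia differed by 0.02 (95% interval -0.51 to 0.54) and Nfkbie by 0.04 (-0.36 to 0.43). For Nfkb2 the change was -0.18 with all arrays and 0.72 without GenD array 1 (limma, adjusted p = 0.0205).

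**Figure D3:**
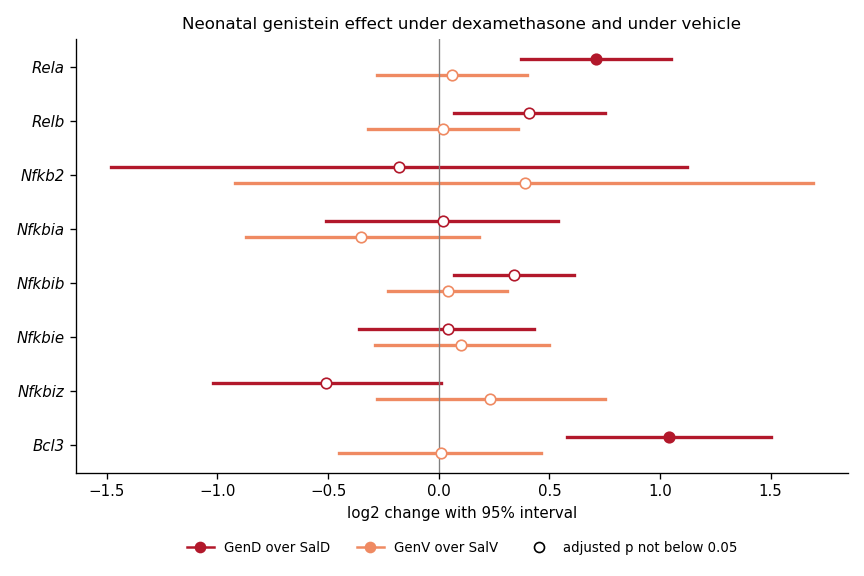
Log2 change with its 95% interval for each tested member in GenD over SalD (red) and GenV over SalV (orange); filled points have an adjusted p below 0.05. Only Rela and Bcl3 under dexamethasone are filled, and the wide intervals of Nfkb2 come with 1 GenD array at -3.65.

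Other genes of the pathway were counted from 4 lists, which, like the members, were chosen with earlier results of these data known. The counts therefore stand beside the shares of all genes as description only. Of 23 measured ligands and receptors, 3 fell and none rose in GenD over GenV (beside 5.29% of all genes called). Of these 3, Tnfsf11 was not well above background on any GenD array. In SalD over SalV 6 fell and none rose (beside 23.0%). In GenD over SalD 3 rose and 3 fell (beside 22.9%). Il1b, which encodes interleukin-1 beta, changed by -3.36 in GenD over GenV and by -3.59 in SalD over SalV. Tnf, the tumour necrosis factor gene, changed by -1.15 in GenD over GenV and by -1.94 in SalD over SalV, and by 1.15 in GenD over SalD. Tlr4, a receptor for bacterial lipopolysaccharide, changed by -1.26 and Ltbr, the lymphotoxin beta receptor gene, by -0.69 in GenD over SalD. Ltb, whose product signals through the lymphotoxin beta receptor to Relb, changed by -1.02 in SalD over SalV. In GenD over GenV its change of -0.56 did not pass. Tnfsf14, a further ligand gene, changed by -1.10 in SalD over SalV and by 0.95 in GenD over SalD. The median change of this list was -0.31 in GenD over GenV (all genes -0.015) and -0.24 in SalD over SalV (all genes -0.16).

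A second list held the kinases, adaptors and ubiquitin enzymes that link receptors to the inhibitors. Of 27 measured, 0 passed in GenD over GenV, beside 5.29% of all genes. The smallest p there belonged to Traf1 (-0.49, adjusted p = 0.0923) and Chuk (0.50, adjusted p = 0.109) in limma. In SalD over SalV 2 rose and 6 fell, a share near the 23.0% of all genes, and in GenD over SalD 5 rose and 3 fell, near the 22.9%. Those called in SalD over SalV included Tab1 (-0.57), Rbck1 (-0.53) and Traf3 (-0.50), which acts in the noncanonical branch, and Malt1 (0.51), which acts downstream of antigen receptors. In GenD over SalD the largest changes among those called were falls of Ikbkg (-0.94) and Malt1 (-0.65) and rises of Rbck1 (0.63) and Traf3 (0.57). The list's median change was -0.08 in GenD over GenV (all genes -0.015) and -0.05 in SalD over SalV (all genes -0.16). Of 14 other inhibitors, 0 passed in GenD over GenV (beside 5.29%). In SalD over SalV 2 rose and 2 fell, and in GenD over SalD 3 rose and 1 fell, both again near the shares of all genes. Nfkbid, which encodes a further nuclear IkappaB protein, was the member of that list with the largest change in SalD over SalV, at -1.08, and it changed by 0.93 in GenD over SalD. Zc3h12a, which encodes an RNA-degrading enzyme that limits inflammation, changed by -1.25 in GenD over SalD. Nkrf (0.94) and Nkiras1 (0.78), a repressor of NF-kappaB genes and a binding partner of IkappaB, were the 2 that rose in SalD over SalV. The 2 that fell there were Nfkbid and Nkiras2 (-0.56).

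Textbook NF-kappaB target genes mostly fell under dexamethasone where they changed. Of 27 measured, 1 rose and 8 fell in GenD over GenV (median -0.72), beside 5.29% of all genes called and an all-gene median of -0.015. Of the 8 that fell, Cxcl5 was not well above background on any GenD array. In SalD over SalV 3 rose and 13 fell (median -0.66), beside 23.0% and -0.16. In GenD over SalD 5 rose and 2 fell (median -0.04, all genes 0.116), a share near the 22.9% of all genes. The monocyte chemokine genes Ccl2 and Ccl7 changed by -2.79 and -3.37 in GenD over GenV, and by -3.47 and -4.39 in SalD over SalV. Cxcl10, which encodes a lymphocyte attractant, changed by -2.52 in GenD over GenV and by -2.50 in SalD over SalV. Cd83, a marker of activated dendritic cells, changed by -1.66 in GenD over GenV and by -2.76 in SalD over SalV. The gene that rose in GenD over GenV was Bcl2l1 (1.11), which encodes a protein that protects cells from apoptosis. Those that rose in SalD over SalV were Bcl2l1 (2.02), Lcn2 (1.68) and Gadd45b (0.58), of which Lcn2 is named here after its values were seen. In GenV over SalV and for the difference between arms, 0 genes of any of these 4 lists passed in limma, beside 0.00406% and 0% of all genes.

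**Figure D4:**
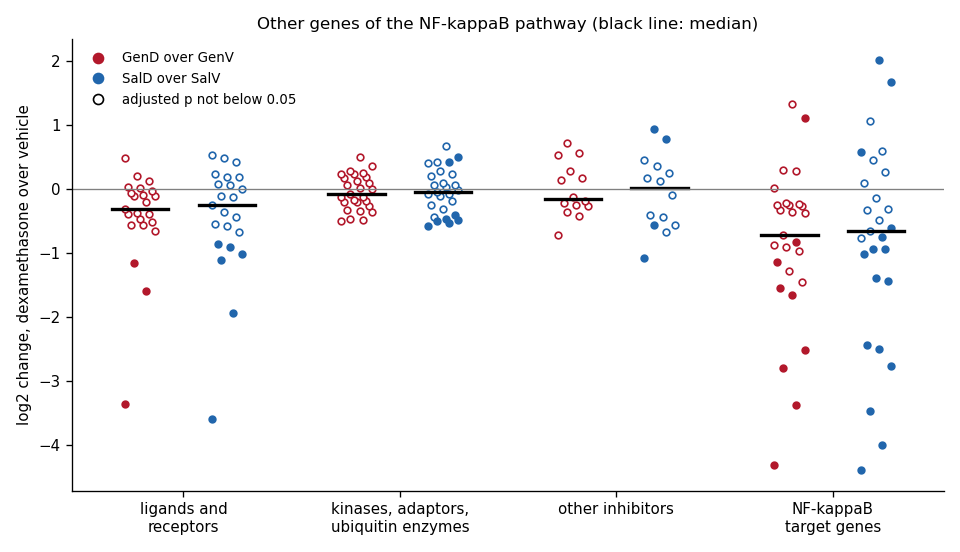
Log2 change under dexamethasone of every measured gene in the 4 pathway lists, in GenD over GenV (red) and SalD over SalV (blue); filled points have an adjusted p below 0.05 and black lines are list medians. The target genes have the lowest medians, -0.72 and -0.66, and hold the largest falls. Cxcl5 and Tnfsf11 were not well above background on any GenD array.

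Markers of several cell types differed between the same groups. Beside the counts below, 5.29% of all genes were called in GenD over GenV, 23.0% in SalD over SalV and 22.9% in GenD over SalD. The macrophage, B cell and stromal counts in SalD over SalV were near or below that share. Of 6 leukocyte markers, 3 (Ptprc, Cd52 and Coro1a) fell in both dexamethasone comparisons. Their summed signal over the 6, in units of the 75th percentile, was 10.9 to 12.2 in GenD, against 17.1 to 23.9 in GenV, and 7.95 to 10.6 in SalD, against 15.1 to 18.5 in SalV. Of 5 neutrophil markers, 5 fell in GenD over GenV and 4 in SalD over SalV, and their sum was 0.515 to 0.987 in GenD, against 2.37 to 4.63 in GenV, and 0.556 to 1.48 in SalD, against 2.87 to 3.87 in SalV. Endothelial sums were 3.61 to 4.18 in GenD, against 4.57 to 6.69 in GenV, and 3.36 to 4.14 in SalD, against 5.60 to 7.40 in SalV. Stromal sums were 96.2 to 112.3 in GenD, against 77.3 to 90.1 in GenV, and 105.0 to 130.0 in SalD, against 80.7 to 100.3 in SalV. The sums of these 4 lists did not overlap between dexamethasone and vehicle in either arm, and neither did the levels of Relb, Nfkb2, Nfkbia, Nfkbie and Bcl3. Of all single genes, 12.2% did not overlap in GenD over GenV and 28.3% in SalD over SalV. The sums of the other lists overlapped in at least 1 arm. Of 5 T and NK cell markers, 0 passed in GenD over GenV and 4 fell in SalD over SalV, and 3 rose in GenD over SalD. Their sum was 0.949 to 1.44 in GenD, 1.07 to 1.77 in GenV, 0.384 to 0.802 in SalD and 1.21 to 1.70 in SalV, and the SalD arrays lay below all others. Of 6 macrophage markers, 1 fell in GenD over GenV and 1 rose in SalD over SalV, and of 4 B cell markers 1 fell in each of these comparisons. In GenD over GenV, 2 of 5 stromal markers rose, 1 of 6 endothelial markers fell and no adipocyte, epithelial or smooth muscle marker passed. In SalD over SalV, 5 of 6 adipocyte markers and 1 of 5 stromal markers rose, 2 of 5 smooth muscle and 3 of 6 endothelial markers fell, and no epithelial marker passed. All the leukocyte, neutrophil, T and NK cell and macrophage markers were well above background on every array. Their part in the results on the NF-kappaB genes was not tested.

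**Figure D5:**
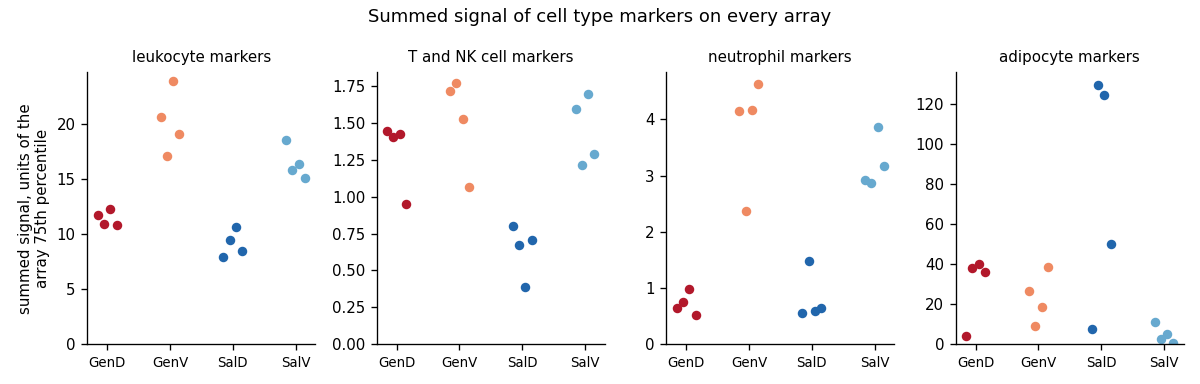
Summed signal of marker genes on every array, in units of that array's 75th percentile, for leukocytes, T and NK cells, neutrophils and adipocytes. Leukocyte and neutrophil sums are lower in both dexamethasone groups, T and NK cell sums are lowest in SalD at 0.384 to 0.802, and 2 SalD arrays reach adipocyte sums of 129.6 and 124.6.

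The genes whose pattern over the 16 arrays was most like that of each called member were found by the root mean square difference of centred log2 levels among 16529 genes with a symbol. The closest to Relb were H2-DMb1 (0.155), H2-Aa (0.195) and Lyl1 (0.198), against a spread of 0.616 in Relb itself. The first 2 encode parts of the class II antigen presentation machinery. The closest to Rela were Irf3 (0.103), Tmem63a (0.107) and Zfpl1 (0.12), against a spread of 0.395, and Irf3 encodes an interferon regulatory factor. Among those closest to Bcl3 were Lsp1 (0.228) and Tfeb (0.285), against 0.629, and Lsp1 encodes a leukocyte protein. Nfkbie was followed by Bcl2a1b, Cdk6 and Slamf9 (0.232 each, against 0.558), and Nfkbia by Rnf125 (0.214), Tnnt2 (0.217) and Zc2hc1c (0.294, against 0.555). Nfkbib was followed by Hmgxb3 (0.092), Hnrnpll (0.107) and Mrpl41 (0.11), against 0.278. These are descriptions over arrays that share slides and scaling.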

How the data were processed

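Each array held RNA of 1 sample, from 400 ng in Cy3 labelling, per the labels. The deposited scanner files give each spot's intensity, background-subtracted and not normalized between arrays, per the file headers, which name Agilent Feature Extraction 12.0.0.7, whereas the submitters' processing notes name version 9.5. The deposited value table differed from the scanner files by 0 and was used for nothing else. Spot flags (0 or 1, per the file headers) served as filters. Log2 signal minus the array's 75th percentile was used, outlier spots were set to missing, repeated spots were averaged, and 32598 probes passed a filter of being well above background on 4 or more of the 16 arrays. The brightest probe stood for a gene, which left 24652 genes and targets. Of 29245 RefSeq probes, 28223 matched a symbol of the GRCm38.p6 gene table. Between 68.9 and 81.3% of spots were well above background.

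A model of 4 group means was fitted with limma 3.58.1 (R 4.3.3), with empirical Bayes moderation and Benjamini-Hochberg adjustment over all genes of each of 5 comparisons; tests are two-sided. In a test on simulated data for SalD against SalV over 24652 genes, 100 genes were changed by 1 and 100 by 2 on the log2 scale. Of these, 44% and 77% were called, with 7 calls on unchanged genes. Far fewer genes were changed than the 5669 called in the real comparison, so these shares do not give its recovery. Alternatives were other scalings, normexp background (offset 50, on median signals because no mean signal was used here), filters, probe summaries, slide and replicate blocks, fits of the compared arrays only, a variance trend, array weights, a looser threshold (adjusted p below 0.1) and the removal of single arrays. Leaving out SalD arrays 2 and 3, or GenV arrays 3 and 4, was added after seeing the data. The members and lists were chosen with earlier results of these data known. In each list, up to 4 called genes with the largest change were named, or up to 2 with the smallest p. The text prints a selection, without values for genes below background in a whole group. For each called member the 3 genes with the most similar pattern were sought, and 1 of these genes is not reported here. Plots were made in Python 3.11.15 with matplotlib 3.10.9.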

Additional observations from a re-analysis of the deposited data

Results flagged for a closer look

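Among 32 groups of 4 arrays (8 members in 4 groups), 2 held an array separated from the others by a gap that, as a share of the group's whole range, was above the 95% critical value of Dixon's test, which chance passes in about 1 in 20 groups. Nfkb2 on GenD array 1 had a level of -3.65, with the other GenD arrays at -0.28 to 0.16. Rela on GenV array 4 had a level of 2.07, with the other GenV arrays at 2.38 to 2.42.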

How the results depend on the processing

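Of 11 called changes of members, 7 held in all 32 alternatives and 0 turned sign. Nfkbia in SalD over SalV was lost in 15 (0.55 to 0.94 over all alternatives, adjusted p 0.0272 to 0.178), Nfkbia in GenD over GenV in 7 (adjusted p up to 0.0967), Nfkbib in GenD over GenV in 3 (adjusted p up to 0.117) and Bcl3 in GenD over SalD in 1. Of 29 changes that were not called, 5 were called in some alternative with the same sign and 12 turned sign in some alternative. Nfkb2 in GenD over SalD was 0.72 without GenD array 1 (adjusted p = 0.0205), against -0.18, with a range of -0.55 to 0.72 when arrays were left out singly. The count of members called in GenD over GenV was 2 rather than 4 with normexp background and with only the compared arrays, and 3 to 4 with arrays left out singly. In GenD over SalD it was 4 rather than 2 at an adjusted p below 0.1, 5 with array weights and 1 without SalD arrays 2 and 3; with the variance trend it was 3, and with arrays left out singly it was 2 to 3. For Bcl3 the difference between arms had an adjusted p of 0.0728 to 0.428 over 31 alternatives; a fit of only the compared arrays does not exist for it. Calls over all genes ran from 3107 (without SalV array 1) to 8007 (adjusted p below 0.1) in SalD over SalV, 382 (normexp) to 6065 (array weights) in GenD over GenV, 0 to 96 for the difference between arms, 0 to 2 in GenV over SalV and 2394 (without SalD arrays 2 and 3) to 11036 (array weights) in GenD over SalD. The share of calls that were higher in GenD over SalD was 72.1%, and 56.3% with median scaling, and in GenD over GenV it was 66.0% with normexp, against 47.1%. The replicate numbers were not used to pair the arrays in the main model. Over 24 pairs of same-numbered arrays the correlation of deviations from group means was -0.368 to 0.378 (median 0.0308). Over 72 pairs with other numbers it was -0.420 to 0.390 (median -0.0376). Of 16 arrays, 5 correlated best with an array of their own number. These values cannot exclude a pairing of the arrays. With the replicate number as a block, Nfkbia in SalD over SalV was 0.72 (adjusted p = 0.0702), the only call on a member that this changed, and 6080 genes were called in SalD over SalV and 1356 in GenD over GenV.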
